A study of Mus musculus with 38 samples.

Results

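The transforming growth factor-β (TGF-β) and activin genes were examined in the cells that line bone, with and without myeloma. The rule took the rows of the deposited expression table whose symbol was Tgfb1, Tgfb2, Tgfb3, Tgfbr1, Tgfbr2, Tgfbr3, Smad2, Smad3, Inhba or Fst, and it found 9 of these 10 genes among the 13260 genes of the table. Tgfb1 was not analysed here. All mice were of the C57Bl/KaLwRijHsd strain, which accepts the syngeneic 5TGM1-GFP mouse myeloma line. They were 8 to 10 weeks old when given tumour cells or vehicle. Myeloma-bearing mice had been given 1000000 5TGM1-GFP cells by the intravenous route and healthy mice the vehicle, phosphate-buffered saline. Bones were taken at day 23, and neither arm received a drug. Cells released from the cleaned bone surface by collagenase were gated to leave out CD45+ leukocytes and Ter119+ red cells, and then sorted into endothelial cells (EC, CD31+), stromal progenitors (SP, CD31- Sca1+ ALCAM-) and osteoprogenitors (OP, CD31- ALCAM+ Sca1-). GFP+ myeloma cells (MM) were sorted from the bone lining and from the central marrow of the myeloma-bearing mice. EC, SP and both MM groups had 5 libraries each and each OP group had 4, which made 38 SmartSeq2 libraries of 100 cells in 8 groups. A library is named by its group and the letter of its code. The labels do not say that a letter is 1 mouse, so p values measure the spread between these libraries, which may in part be technical. All myeloma cells came from 1 transplanted line.

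TGF-β ligands are secreted in a latent form and stored in matrix, and bone matrix is among their largest stores. Once released, a ligand binds the type 2 receptor (Tgfbr2), which recruits and activates the type 1 receptor (Tgfbr1), while betaglycan (Tgfbr3) presents ligand, TGF-β2 above all. The type 1 receptor phosphorylates the transcription factors Smad2 and Smad3. Inhba encodes the subunit that forms activin A, a relative that uses its own receptors but the same pair of Smads, and follistatin (Fst) binds activin and keeps it from its receptors. TGF-β and activin A are both known for restraining late osteoblast differentiation and for acting on osteoclasts.

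Whole reads recovered from the deposited values summed to between 9735031 and 34883291 per library. Endothelial markers, 5 genes, summed to 613 RPKM or more in every EC library and to 26.0 RPKM or less in every SP, OP or MM library. Osteoprogenitor markers, 6 genes that include Alcam, summed to 1.028e+04 RPKM or more in every OP library and to 3339 RPKM or less elsewhere. A chondrocyte list of 4 genes (Acan, Col2a1, Col9a1, Sox9) was also highest in OP. It summed to 1500 to 3730 RPKM in healthy and 1919 to 4934 RPKM in myeloma-bearing OP. In SP it summed to 69.2 to 374 RPKM in healthy and 91.85 to 352 RPKM in myeloma-bearing mice. It stayed at 24.5 RPKM or less in EC and MM. How far chondrocytes contributed to the OP values was not tested. Of the myeloma markers, 4 genes summed to 3001 RPKM or more in every MM library and to 34.1 RPKM or less elsewhere. The stromal list of 5 genes summed to 958 to 3036 RPKM in SP and to 57.4 to 202 RPKM in OP. Its sum was higher still in EC (2253 to 8771 RPKM) and so did not set SP apart from EC. Ly6a made up most of it in EC, with means of 4445 and 4439 RPKM in healthy and myeloma-bearing mice. Pdgfra was at 34.2 RPKM or more in every SP library and at 6.01 or less in every EC library. For Prrx1 these limits were 36.2 and 33.4 RPKM, and Pdgfrb and Lepr overlapped. A pair of stromal libraries stood apart in a list of 5 myeloid genes, with sums of 6529 RPKM (healthy L) and 7012 RPKM (myeloma E) against 1.26 to 86.7 RPKM in the other 8, although the gate left out CD45+ cells. Stromal differences without this pair are given beside the values of Tgfb2, Tgfbr2, Smad3, Inhba and Fst.

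The promoters of Tgfb2 and Inhba are shown because these were the ligand gene whose stromal libraries separated by the presence of myeloma and the 1 member called between stromal progenitors and osteoprogenitors. Each window is the RefSeq sequence on GRCm38.p6, 5′ to 3′ on the strand of the gene, from 250 bases before to 50 bases after its start. Capitals mark exact matches, on either strand, to 3 motifs. The E-box was searched as CACGTG. The TATA box was searched as TATAAA. The element bound by Smad proteins was searched as CAGACA.
Tgfb2, chr1:186705940-186706239, minus strand: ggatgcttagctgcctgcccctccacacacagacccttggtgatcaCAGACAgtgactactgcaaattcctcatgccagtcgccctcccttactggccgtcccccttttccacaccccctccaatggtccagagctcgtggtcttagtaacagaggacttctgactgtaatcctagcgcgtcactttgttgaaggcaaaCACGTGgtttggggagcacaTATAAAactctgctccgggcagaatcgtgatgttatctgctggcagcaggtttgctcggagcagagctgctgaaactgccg
Inhba, chr13:16011601-16011900, plus strand: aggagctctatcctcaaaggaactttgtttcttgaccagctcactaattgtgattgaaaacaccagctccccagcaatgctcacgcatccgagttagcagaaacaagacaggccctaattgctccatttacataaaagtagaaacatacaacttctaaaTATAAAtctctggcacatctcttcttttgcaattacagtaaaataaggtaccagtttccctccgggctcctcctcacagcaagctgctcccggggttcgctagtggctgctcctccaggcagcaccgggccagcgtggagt
The Tgfb2 window held a CAGACA 204 bases before the start, an E-box 51 bases before it and a TATAAA 31 bases before it. The Inhba window held a TATAAA 91 bases before the start. Of 32851 RefSeq windows of 300 bases, 21% held CAGACA, 13.6% held TATAAA and 7.15% held CACGTG. Neither window held a cyclic AMP response element (TGACGTCA, 1.79% of windows), an AP-1 site (TGACTCA, 5.2%) or a GC box (GGGCGG, 35.7%). In the windows of the receptor genes, Tgfbr1 had 2 GC boxes, at 133 and 95 bases before its first start. A second window of Tgfbr1, at another start, had no GC box but held the Smad element 203 bases before that start, and Tgfbr2 had none of the 6 motifs. A match is a description of letters and not of binding.

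Of the ligand genes, Tgfb2 (chromosome 1, 186622792 to 186705989, minus strand of GRCm38) and Tgfb3 (chromosome 12, 86056745 to 86079041, minus strand) were both carried by the mesenchymal populations. Tgfb2 averaged 29.4 ± 14.9 RPKM (SD, n = 10) in SP and 18.03 ± 11.9 (SD, n = 8) in OP, against 4.37 ± 5.23 (SD, n = 10) in EC and 0.0931 ± 0.229 (SD, n = 10) in MM. RPKM scales reads by the length of the transcript and the size of the library, so levels of different genes can be set side by side. Libraries of neighbours in the order SP, OP, EC, MM overlapped, and the test below called each step but that from SP to OP. In healthy mice alone SP and OP averaged 16.2 ± 5.10 (SD, n = 5) and 16.3 ± 6.83 RPKM of Tgfb2 (SD, n = 4), with a log2 difference of 0.057 (SE 0.64), so SP stood above OP in the pooled means through the myeloma-bearing libraries. In MM cells, 9 of 10 libraries had 0 to 5 Tgfb2 reads and central marrow E had 95. Tgfb3 averaged 29.3 ± 13.1 RPKM (SD, n = 10) in SP and 18.4 ± 11.6 (SD, n = 8) in OP. It was at 14 reads or fewer in 9 of 10 EC libraries and at 3 reads or fewer in all 10 MM libraries. The exception was EC healthy N, with 10.8 RPKM from 778 reads. In a library with 0 reads, 3 reads would have been worth 0.0328 to 0.0628 RPKM of Tgfb3, for counting error alone.

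Tgfb2 was the member whose stromal libraries separated by the presence of myeloma. In healthy SP it stood at 15.7 RPKM in C, 8.73 in L, 17.0 in M, 23.1 in N and 16.4 in O. In myeloma-bearing SP it stood at 38.9 RPKM in D, 51.8 in E, 38.8 in G, 46.4 in I and 36.9 in J. Every myeloma-bearing library lay above every healthy one, and the gap between the groups ran from 23.1 to 36.9 RPKM. The means were 42.6 ± 6.31 (SD, n = 5) and 16.2 ± 5.10 RPKM (SD, n = 5). On the log2(RPKM + 1) scale the difference was 1.39 (SE 0.56, 95% confidence interval 0.21 to 2.57), with an adjusted p of 0.915 by limma over 8747 genes, so it was not called. Voom-limma on the recovered reads, the method of the study, gave 1.46 (SE 0.57) with an adjusted p of 0.383. Of 8747 genes tested, 61 (0.697%) had SP groups that did not overlap, and Tgfb2 was the 1 member of 9 among them. Its unadjusted p of 0.0235 stood at rank 219 of all genes. Leaving out healthy L and myeloma E, its lowest and highest libraries, the difference was 1.13 (adjusted p = 0.971, limma).

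Other cell types in the stromal gate could carry Tgfb2 reads, and mural cells, which wrap small vessels, were checked by 4 genes (Rgs5, Myh11, Cspg4, Acta2). Their summed level ran from 20.9 to 237 RPKM (median 31.0) in healthy SP and from 66.9 to 504 RPKM (median 157) in myeloma-bearing SP. Of the 4 genes, 3 passed 1 RPKM in some healthy library and 4 in some myeloma-bearing library. Rgs5 stood at 4.65, 0, 40.7, 0.0253 and 0.124 RPKM in healthy C, L, M, N and O and at 81.7, 0, 301, 0 and 160 RPKM in myeloma-bearing D, E, G, I and J. Acta2 stood at 0.375, 0.114, 184, 9.46 and 116 RPKM in the healthy libraries and at 61.1, 48.8, 194, 102 and 29.3 RPKM in the myeloma-bearing ones, in the same order. Cspg4 ran from 12.9 to 22.3 RPKM in healthy and from 4.92 to 18.1 RPKM in myeloma-bearing SP, and Myh11 from 0 to 0.472 and from 0 to 4.03 RPKM. The summed level was thus higher in the myeloma-bearing libraries by its median, with overlap, and of the 4 genes Cspg4 was not. The part of mural cells in the Tgfb2 values was not tested. In sorted pools of cells, fewer cells of a type and less RNA per cell cannot be told apart. An unnamed gene model, Gm29491, has an exon that overlaps Tgfb2 on the opposite strand, and reads of that stretch could not be told apart without strand. The same holds for Tgfb3 (Gm37804, Gm48008) and Fst (Gm47040), and Gm43422 overlaps Tgfbr3 on the same strand.

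Tgfb3 did not separate the same stromal libraries. Healthy SP had 24.6 RPKM in C, 58.4 in L, 17.4 in M, 20.1 in N and 29.4 in O, and myeloma-bearing SP had 36.5 in D, 38.9 in E, 20.7 in G, 14.2 in I and 32.6 in J. The log2 difference was -0.03 (SE 0.59, 95% confidence interval -1.28 to 1.23). Tgfb2 made up 13.0% to 53.4% of the sum of both ligand transcripts in healthy SP and 51.6% to 76.6% in myeloma-bearing SP, so that the groups touched in the shares. The sum itself ran from 34.4 to 67.2 RPKM and from 59.4 to 90.7 RPKM. In OP, Tgfb2 stood at 19.5, 18.6, 6.15 and 20.9 RPKM in healthy L, M, N and O and at 30.2, 4.86, 37.6 and 6.44 RPKM in myeloma-bearing D, G, I and J. The myeloma-bearing OP libraries thus fell on both sides of the healthy ones, and the log2 difference was -0.07 (SE 0.82). The library with the most Tgfb3 in that group, G at 44.0 RPKM, was the one with the least Tgfb2.

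**Figure D1:**
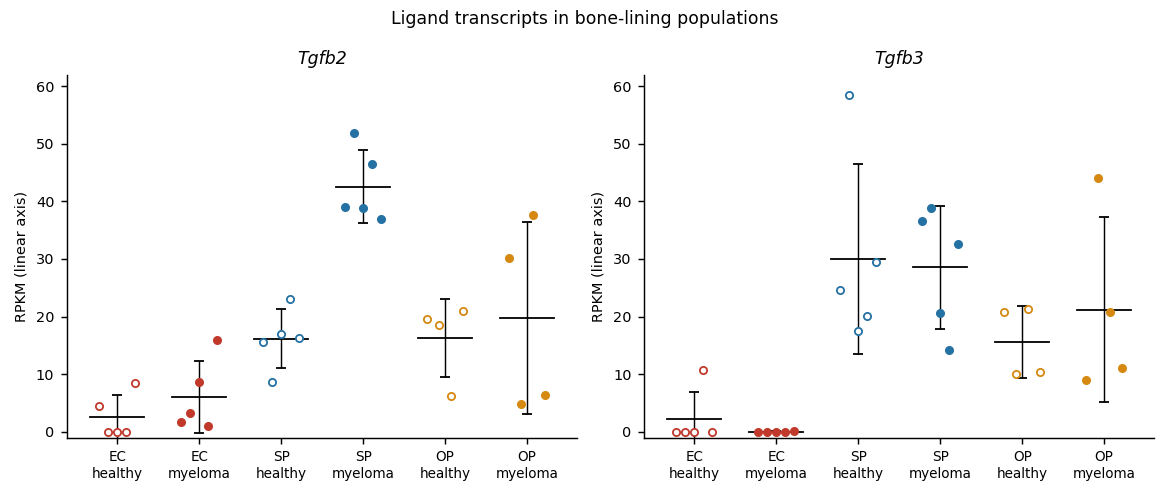
Tgfb2 and Tgfb3 in RPKM on a linear axis, 1 point per library (open, healthy; filled, myeloma-bearing), with the mean as a black line and the SD as whiskers. The 5 myeloma-bearing SP libraries sit between 36.9 and 51.8 RPKM of Tgfb2, all above the 5 healthy SP libraries, while Tgfb3 overlaps.

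In EC, Tgfb2 was unevenly detected. Healthy C and O had 4.57 and 8.54 RPKM, and healthy L, M and N had 2 to 3 reads each. Myeloma-bearing EC had 1.64, 3.25, 8.73, 0.961 and 15.9 RPKM in D, E, G, I and J, so each of these had at least 61 reads. The difference of 1.20 on the log2(RPKM + 1) scale (SE 1.03) had an adjusted p of 0.960 by limma, and voom-limma gave 4.13 (SE 1.37) with an adjusted p of 0.144. Neither was called.

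Of the receptors, Tgfbr1 and Tgfbr3 were higher in SP than in EC, as the ligands were, and Tgfbr2 ran the other way. Tgfbr2 (chromosome 9, 116084293 to 116175360, minus strand), the receptor that binds ligand first, was highest in EC at 155 ± 129 RPKM (SD, n = 10), followed by OP at 63.2 ± 23.5 (SD, n = 8) and SP at 48.5 ± 25.8 (SD, n = 10). The EC libraries ranged from 36.8 (myeloma-bearing E) to 488 RPKM (healthy L) and so reached into the range of both mesenchymal populations. Tgfbr3 (chromosome 5, 107106570 to 107289629, minus strand), the co-receptor betaglycan, had the reverse order, with 92.7 ± 38.2 RPKM (SD, n = 10) in SP, 65.3 ± 23.7 (SD, n = 8) in OP and 47.0 ± 28.5 (SD, n = 10) in EC. Tgfbr1 (chromosome 4, 47353222 to 47414931, plus strand), the signalling partner, averaged 38.9 ± 14.7 RPKM (SD, n = 10) in SP, 34.9 ± 24.7 (SD, n = 8) in OP and 15.9 ± 12.6 (SD, n = 10) in EC. SP and OP were not separated in any of the 3 receptors by more than the spread between libraries.

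Within EC, Tgfbr1 differed widely between healthy libraries. It stood at 0.214 RPKM in C, 0.0502 in L, 25.2 in M, 10.3 in N and 2.49 in O. Myeloma-bearing EC had 20.2 RPKM in D, 37.5 in E, 14.3 in G, 25.2 in I and 23.5 in J. The groups overlapped through healthy M alone. The difference was 2.51 on the log2 scale (SE 1.13, 95% confidence interval 0.15 to 4.88), which limma did not call over these 10 libraries (adjusted p = 0.925). Voom-limma on the recovered reads of all 38 libraries did call it, at 3.81 (SE 1.04, adjusted p = 0.0631), and so did limma with all 38 libraries in 1 fit (adjusted p = 0.0623). Megakaryocytes and platelets also carry CD31, and CD45+ cells were left out by the gate. The 3 genes of their list summed to 139, 0.310, 6.90, 166 and 239 RPKM in healthy C, L, M, N and O and to 162, 236, 1.05, 62.9 and 230 RPKM in myeloma-bearing D, E, G, I and J. The 6 osteoprogenitor genes, of a population with more Tgfbr1 and Tgfb2 than EC, summed to 103, 17.4, 6.15, 17.5 and 86.6 RPKM (median 17.5) and to 21.3, 94.8, 44.0, 330 and 634 RPKM (median 94.8) in the same libraries. Healthy L, with the lowest Tgfbr1, had 4501 genes above 1 RPKM, the fewest of the 10 EC libraries, where the others had 5834 to 7805. Healthy C, with the next lowest Tgfbr1, had 7463. The myeloid list summed to 162, 2.99, 3.05, 4.95 and 24.5 RPKM in healthy C, L, M, N and O. In myeloma-bearing D, E, G, I and J it summed to 1.59, 71.0, 3.27, 149 and 45.8 RPKM. The part of other cells, or of library quality, in the Tgfbr1 and Tgfb2 values of EC was not tested.

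Tgfbr2 in EC was 191 ± 174 RPKM (SD, n = 5) in healthy and 119 ± 63.6 (SD, n = 5) in myeloma-bearing mice, with a log2 difference of -0.46 (SE 0.68). Healthy L alone stood at 488 RPKM, where the other 4 healthy libraries ranged from 56.5 to 186, and without it the difference was -0.014 (SE 0.61). Tgfbr3 in EC was 43.1, 118, 46.0, 63.5 and 52.7 RPKM in healthy C, L, M, N and O and 43.7, 35.2, 17.5, 21.1 and 29.6 in myeloma-bearing D, E, G, I and J. These groups touched at 43.1 and 43.7 RPKM. The log2 difference was -1.08 (SE 0.72) with an adjusted p of 0.943 (limma), and voom-limma gave -1.02 (SE 0.41) with an adjusted p of 0.247. In SP, Tgfbr2 was 36.2 ± 14.7 RPKM (SD, n = 5) in healthy and 60.8 ± 30.0 (SD, n = 5) in myeloma-bearing mice, and Tgfbr1 stood at 38.9 and 39.0 RPKM. The Tgfbr2 difference in SP was 0.69 (SE 0.53), and 0.39 (SE 0.61) without healthy L and myeloma E. The ratio of Tgfbr2 to Tgfbr1 was 0.705 to 1.46 in healthy SP and 0.901 to 1.97 in myeloma-bearing SP.

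In myeloma cells the 3 receptors were at the edge of detection. Tgfbr1 had 0 to 4 reads, Tgfbr2 1 to 9 and Tgfbr3 2 to 19 reads in each of the 10 libraries. The largest of these levels was 0.139 RPKM, for Tgfbr3 in lining G. Smad3 ranged in the same libraries from 3 reads (0.024 RPKM, lining D) to 3.79 RPKM and was above 1 RPKM in 6 of 10. Smad2, on chromosome 18, had 1.36 to 6.98 RPKM in the 10 MM libraries and averaged 3.39 ± 1.91 (SD, n = 10), beside 10.4 ± 10.5 (SD, n = 10) in EC, 7.44 ± 4.54 (SD, n = 8) in OP and 4.89 ± 4.45 (SD, n = 10) in SP. Smad2 was the 1 member not called between any pair of populations, though without the letter N it was called between EC and MM (1.15, adjusted p = 0.0768 by limma).

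**Figure D2:**
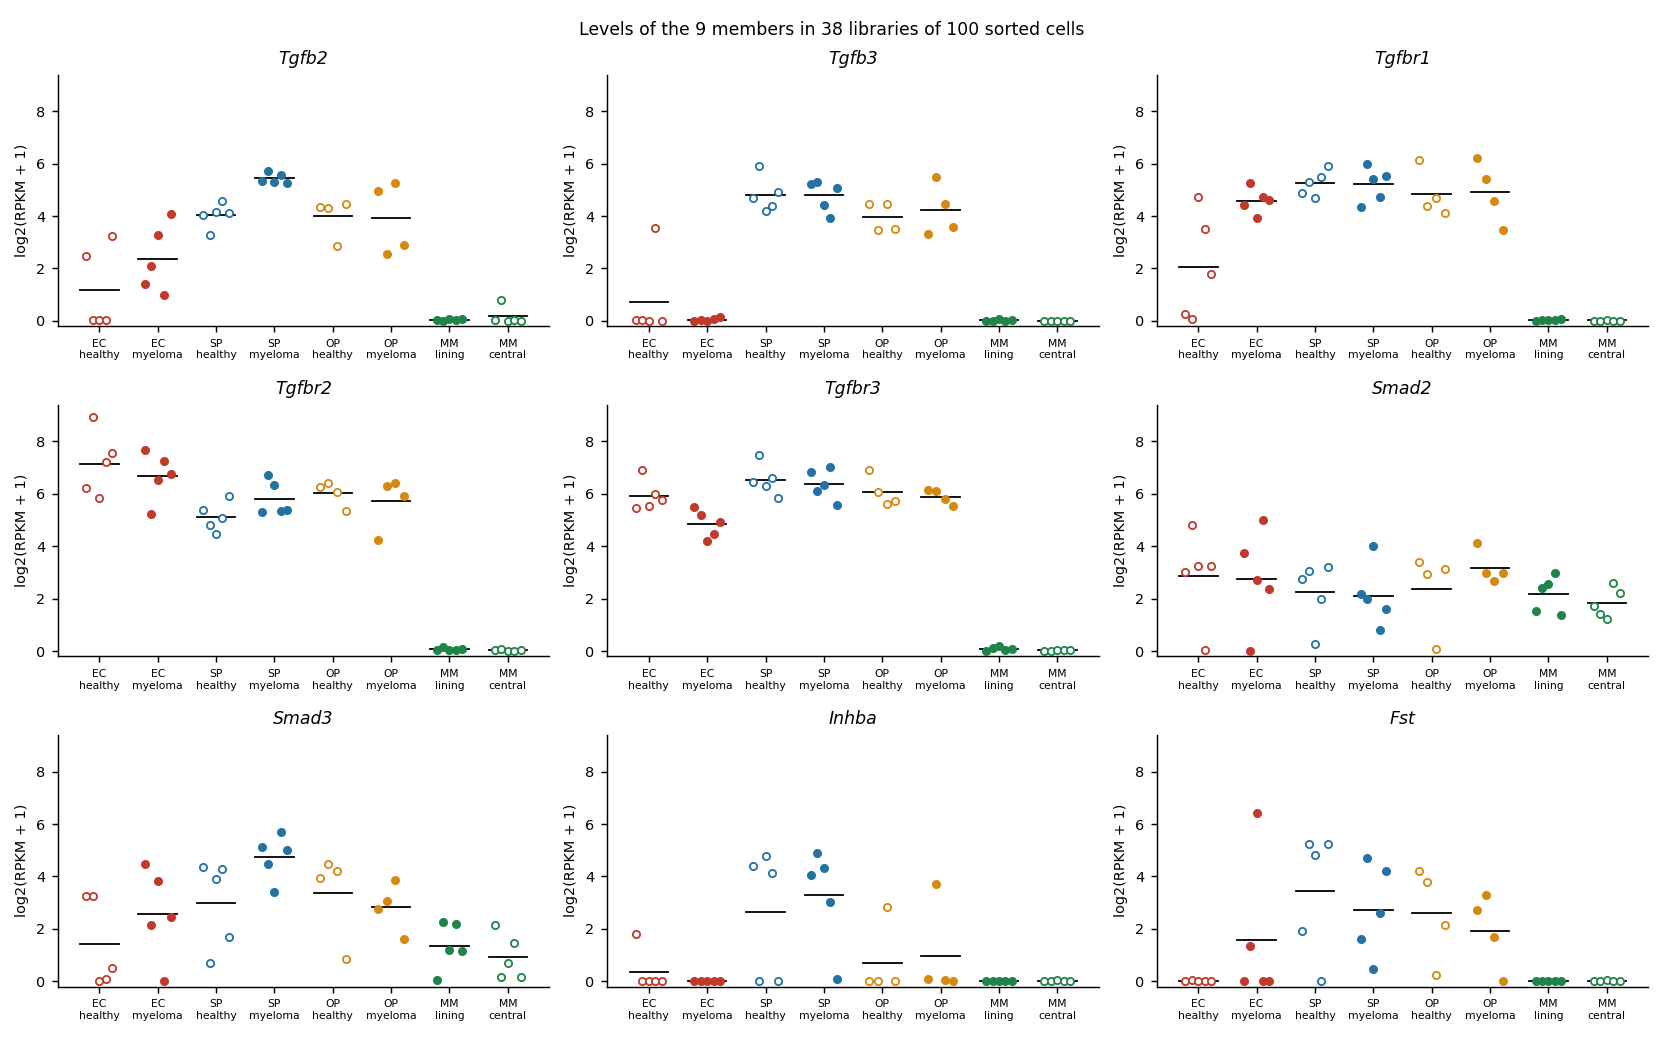
The 9 members on the log2(RPKM + 1) scale in each of the 38 libraries, grouped by population (EC, SP, OP, MM) and mice or niche, with the group mean as a black line. Open points are healthy mice or central marrow. Ligands, receptors, Inhba and Fst lie near 0 in the MM groups, and Smad2 lies between 1.36 and 6.98 RPKM there.

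Smad3 (chromosome 9, 63646767 to 63757994, minus strand) varied widely between libraries of 1 group. In healthy SP it stood at 19.7 RPKM in C, 0.633 in L, 13.8 in M, 18.3 in N and 2.26 in O. In myeloma-bearing SP it stood at 33.8 RPKM in D, 21.1 in E, 9.69 in G, 50.9 in I and 31.5 in J. Of the myeloma-bearing libraries, 4 of 5 lay above all healthy ones and G lay within their range. The log2 difference was 1.76 (SE 0.86, 95% confidence interval -0.06 to 3.57, adjusted p = 0.956 by limma). Without the pair of libraries with myeloid genes it was 1.26. In OP the means ran the other way, at 13.5 ± 8.90 RPKM (SD, n = 4) in healthy and 7.14 ± 4.72 (SD, n = 4) in myeloma-bearing mice. The difference between these changes was 2.31 (SE 1.28, adjusted p = 1.00 by limma's interaction term) and was not called.

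Inhba (chromosome 13, 16011851 to 16031621, plus strand), the activin A subunit, was either clearly read or absent. In healthy SP it stood at 20.3 RPKM in C, 26.6 in M and 16.4 in N, and at 0 reads in L and O. In myeloma-bearing SP it stood at 15.7 RPKM in D, 28.7 in E, 19.1 in G and 7.21 in I, and at 2 reads in J. It was above 1 RPKM in 7 of 10 SP libraries, in 2 of 8 OP libraries (healthy N at 6.22 and myeloma-bearing G at 12.1 RPKM), in 1 of 10 EC libraries (healthy C at 2.53) and in 0 of 10 MM libraries. Over the 38 libraries, 24 had 0 reads of Inhba, where 3 reads would have been worth 0.0569 to 0.160 RPKM. The SP groups overlapped, with a log2 difference of 0.62 (SE 1.21), which was -0.45 (SE 1.29) without healthy L and myeloma E and -0.044 without healthy L or healthy O.

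Fst (chromosome 13, 114452290 to 114458951, minus strand), the activin-binding protein, was read in the same populations but not in step with Inhba. In healthy SP it stood at 2.82 RPKM in C, 36.8 in L, 27.1 in M, 0.0196 in N and 36.9 in O. In myeloma-bearing SP it stood at 2.03 RPKM in D, 25.1 in E, 0.384 in G, 5.03 in I and 17.7 in J. The 3 SP libraries with Inhba at 0 to 2 reads (healthy L and O, myeloma-bearing J) had Fst at 17.7 to 36.9 RPKM. With a limit of 1 RPKM, both genes were read in 5 SP libraries, Inhba alone in 2 and Fst alone in 3. In OP, Fst alone was read in 5 of 8 libraries, Inhba alone in healthy N and both in myeloma-bearing G. Among EC libraries Fst stood at 85.2 RPKM in myeloma-bearing G, from 3241 reads, at 1.57 RPKM in E and at 0 or 1 reads in the other 8. Its SP groups overlapped (log2 difference -0.73, SE 1.17, and -0.78, SE 1.31, without healthy L and myeloma E).

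**Figure D3:**
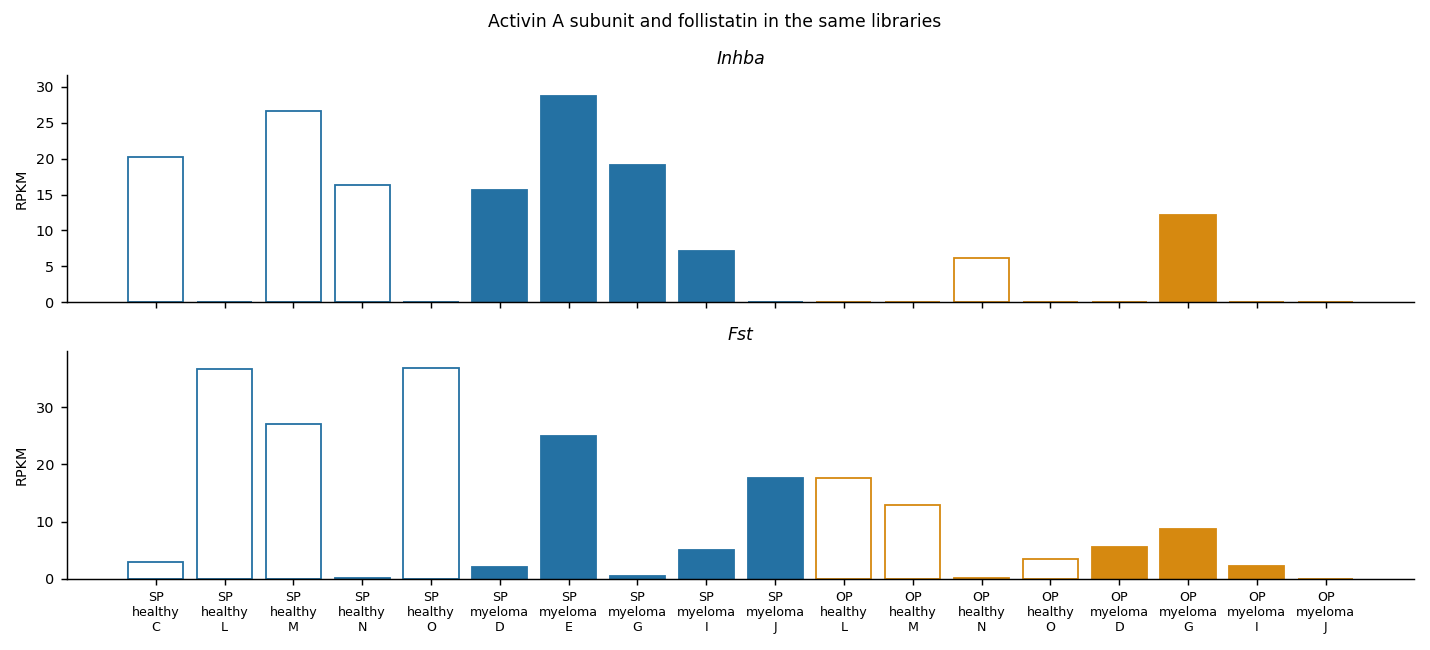
Inhba (upper) and Fst (lower) in RPKM in the same 18 SP and OP libraries, 1 bar per library (open, healthy; filled, myeloma-bearing). Inhba is above 1 RPKM in 7 of 10 SP and 2 of 8 OP libraries, and SP healthy L and O have Fst with no Inhba reads.

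Between populations the 9 members were tested with all 38 libraries in 1 limma fit of 12683 genes. A gene was called at an adjusted p below 0.1 and a log2 difference above 1 in size, and a difference compares the mean of both groups of 1 population with that of the other. SP against OP called 1 of 9 members, beside 8.48% of all genes. This was Inhba, higher in SP by 2.13 (SE 0.62, adjusted p = 0.0292). The call was lost without the libraries of letter D (adjusted p = 0.135), I (0.111) or M (0.128). It was also lost with the libraries of both populations alone (adjusted p = 0.182) and in healthy mice alone (0.543). For the other 8 members the interval of the difference held 0, from -0.19 to 1.76 for Tgfb2 and from -1.21 to 0.41 for Tgfbr2.

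SP against EC called 8 of 9 members, beside 25.5% of all genes, and the members' median difference was 1.90 against 0.12 over all genes tested. Of these members, 7 were higher in SP and Tgfbr2 was lower. Tgfb3 differed by 4.42 (SE 0.40, adjusted p = 1.30e-11, limma), Tgfb2 by 2.97 (SE 0.45) and Inhba by 2.79 (SE 0.59). Fst differed by 2.30, Tgfbr1 by 1.90, Smad3 by 1.87, Tgfbr3 by 1.06 and Tgfbr2 by -1.45. Where EC lay near 0 the pseudocount set the size, and voom-limma on the recovered reads gave 9.55 for Tgfb3, 6.58 for Inhba, 6.50 for Fst, 4.66 for Tgfb2 and 3.79 for Smad3, so no order is read from these sizes. Without the letter I the Smad3 call was lost (adjusted p = 0.109), and without G or I, or without the stromal pair with myeloid genes, the Tgfbr3 difference fell just under 1 (0.98, 0.93 and 0.97). In healthy mice alone, Tgfbr3, Smad3 and Inhba were not called.

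OP against EC called 4 of 9 members, beside 27.9% of all genes, with a median difference of 1.10 against 0.18 over all genes. Tgfb3 was higher in OP by 3.71 (SE 0.42, adjusted p = 4.64e-09, limma), Tgfb2 by 2.19 (SE 0.48) and Tgfbr1 by 1.54 (SE 0.48), and Tgfbr2 was lower (-1.05, SE 0.40, adjusted p = 0.0506). The Tgfbr2 call was lost without the letter D (adjusted p = 0.268), L (0.122) or O (0.147), with the libraries of both populations alone (0.129) and in healthy mice alone (0.357). The Tgfbr1 call was lost without L (0.108) and in healthy mice alone (0.144). Fst, at 1.48 (SE 0.75, adjusted p = 0.160), was called without the letter G (1.86, adjusted p = 0.0402), which holds the EC library with 85.2 RPKM, without N (1.87, adjusted p = 0.0631) and with a pseudocount of 0.1 (3.32, adjusted p = 0.0324). Voom-limma called Fst (5.23, SE 1.52) and not Tgfbr2 (-0.98, SE 0.45).

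**Figure D4:**
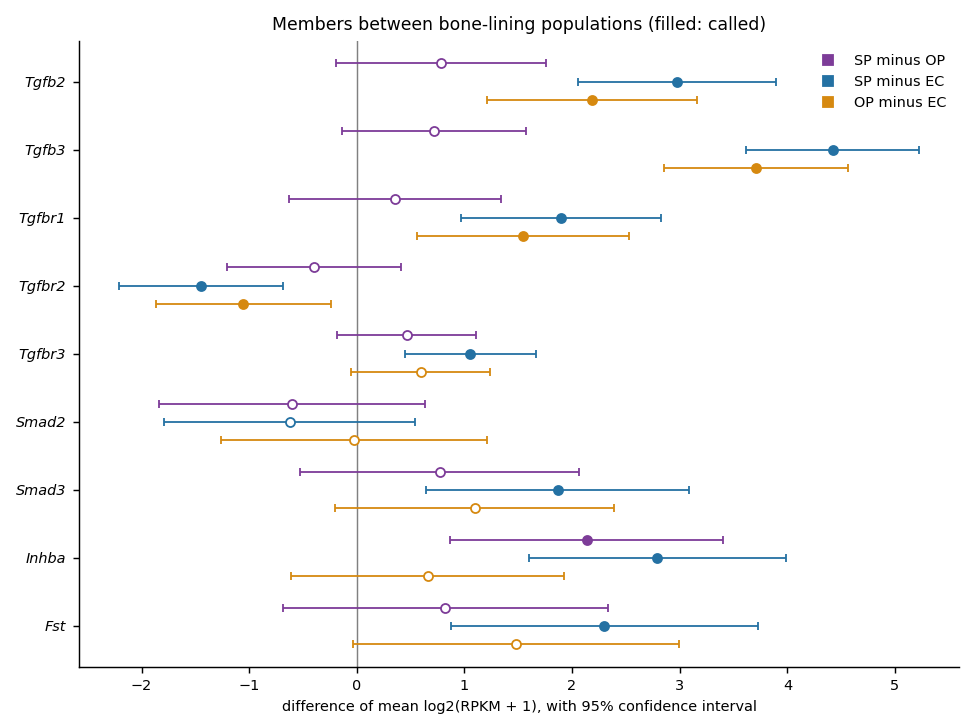
Differences of mean log2(RPKM + 1) between bone-lining populations for the 9 members, with 95% confidence intervals from limma over 38 libraries; filled points were called. SP and OP lie above EC for Tgfb2, Tgfb3 and Tgfbr1 and below it for Tgfbr2, and Inhba is the filled point of SP minus OP.

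Against myeloma cells, SP called 8 of 9 members (41.9% of all genes), OP 7 (40.0%) and EC 4 (43.2%), all of them higher outside the myeloma cells by limma. SP were higher in every member but Smad2, with differences from 2.72 (Smad3, SE 0.60) to 6.39 (Tgfbr3, SE 0.30). OP were higher in Tgfb2, Tgfb3, the 3 receptors, Smad3 and Fst, and EC in Tgfb2 and the 3 receptors, with 6.87 (SE 0.38) for Tgfbr2. Voom-limma also called Inhba in OP (2.89, SE 1.36, adjusted p = 0.0884) and Tgfb3 in EC (1.83, SE 0.86, adjusted p = 0.0758), for 8 and 5 members beside 46.3% and 56.0% of all genes, and it called 8 members in SP beside 52.8%. With levels near 0 on 1 side, the pseudocount sets the size of these differences, and they are no bound on the fold.

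The comparison of myeloma-bearing with healthy mice asked whether the tumour changed these genes in each lining population. In EC, limma called 0 of 6 members tested and 0 of 7880 genes (0%), with 414 genes and 1 member (Tgfbr1) at an unadjusted p below 0.05. In SP it called 0 of 9 members and 0 of 8747 genes (0%), with 437 genes and 1 member (Tgfb2) at an unadjusted p below 0.05. In OP it called 0 of 8 members and 1 of 8664 genes (0.0115%), with 422 genes and 0 members at an unadjusted p below 0.05. Voom-limma on the recovered reads called 251 of 13260 genes in EC (1.89%), 82 in SP (0.618%) and 28 in OP (0.211%), and of the 9 members it called Tgfbr1 in EC and none in SP or OP. Members whose groups did not overlap numbered 0 in EC (0.914% of all genes), 1 in SP (0.697%) and 0 in OP (2.65%). The median difference over the members tested was 0.53 in EC, -0.03 in SP and -0.13 in OP, against 0.07, -0.000621 and -0.03 over all genes.

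The changes were also compared between populations by interaction terms in limma. None of 9 members and 0 of 10735 genes (0%) were called for SP against OP, none of 9 and 0 of 10596 (0%) for SP against EC, and none of 8 and 0 of 10756 (0%) for OP against EC. At an unadjusted p below 0.05 there were 437, 552 and 516 genes, and voom-limma called 16 (0.121%), 51 (0.385%) and 15 genes (0.113%) but 0 members. For Tgfb2 the changes in SP and OP differed by less than the test could call (1.46, SE 0.91, 95% confidence interval -0.43 to 3.34). Tgfbr1 had an interaction of -2.56 (SE 1.12, unadjusted p = 0.0310, adjusted p = 0.920 by limma) between SP and EC.

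**Figure D5:**
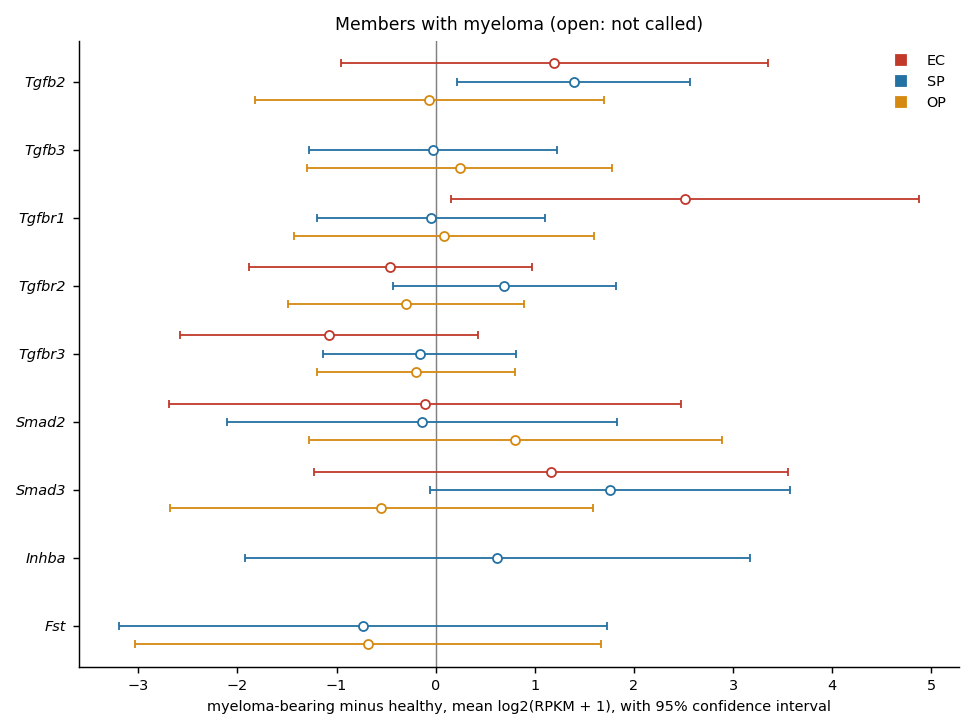
Myeloma-bearing minus healthy differences of mean log2(RPKM + 1) for the members tested in EC, SP and OP, with 95% confidence intervals from limma; open points were not called. The intervals of Tgfb2 in SP (0.21 to 2.57) and Tgfbr1 in EC (0.15 to 4.88) lie above 0 before adjustment, and the others cross it.

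Between the niches of the myeloma cells, 2 members passed the filter of 1 RPKM in 4 libraries, and neither was called, beside 18 of 8857 genes (0.203%) by limma. Lining myeloma cells had 3.96 ± 2.25 RPKM of Smad2 (SD, n = 5), and central cells had 2.82 ± 1.54 (SD, n = 5), which is 0.34 (SE 0.46) on the log2 scale. For Smad3 the lining cells had 1.97 ± 1.63 (SD, n = 5) and the central cells 1.22 ± 1.42 RPKM (SD, n = 5), which is 0.43 (SE 0.53). At an unadjusted p below 0.05 there were 530 genes and 0 members. No member had niche groups that did not overlap (1.47% of all genes), and voom-limma called 12 of 13260 genes (0.0905%) and 0 members.

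The rest of the pathway was described by 4 lists that held 58 genes in the table, counted once: latency and activation of the ligand (14 genes), other ligands, traps and receptors (11), transducers and regulators (16) and response genes (21). Between healthy and myeloma-bearing mice limma called 0 of the 46, 49 and 43 list genes tested in EC, SP and OP, with 2, 2 and 1 at an unadjusted p below 0.05. Voom-limma called 2 in EC and none in SP or OP, beside 1.89%, 0.618% and 0.211% of all genes. These were Acvr2b, an activin type 2 receptor (-7.01, SE 1.43, adjusted p = 0.00856), and Ldlrad4, an inhibitor of Smad activation (6.19, SE 1.68, adjusted p = 0.0601). Between populations, 57 list genes were tested. Of these, 28 were higher and 9 lower in SP than in EC (25.5% of all genes were called in either direction), and 24 were higher and 10 lower in OP than in EC (27.9% of all genes). Between SP and OP, 11 were higher in SP and 1 was lower (8.48% of all genes).

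Genes that hold or free latent ligand divided between the populations. Ltbp2, a latent TGF-β binding protein family member, was higher in SP than in EC by 5.19 (SE 0.38), and Thbs1, which activates latent TGF-β, by 4.25 (SE 0.47, limma). Thbs1 was higher in OP than in EC by 5.37 (SE 0.50). On the endothelial side were Lrrc32, which tethers latent TGF-β to the cell surface (-3.19, SE 0.60, SP minus EC), its relative Lrrc33 (-3.47, SE 0.46) and Ltbp4 (-1.25, SE 0.38). Ltbp4 also differed between the mesenchymal populations, higher in SP than in OP by 2.81 (SE 0.41). Of the 14 genes of this list, all tested, 9 were higher and 3 lower in SP than in EC, where 25.5% of all genes were called.

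Among other receptors and ligands, Eng, the endothelial co-receptor endoglin, was lower in SP than in EC by limma (-5.00, SE 0.51), as was Acvrl1, the endothelial type 1 receptor ALK1 (-2.63, SE 0.37). Eng is also a gene of the endothelial marker list above, so its difference is not separate from cell identity. Fstl1, a follistatin-like secreted protein, was higher in SP than in both EC (2.10, SE 0.40) and OP (2.13, SE 0.43). Mstn, the activin relative myostatin, was higher in SP than in EC (2.98, SE 0.84). Inhbb, the other activin subunit, was lower in OP than in EC (-2.25, SE 0.64). Of 10 tested, 2 were higher and 4 lower in SP than in EC, where 25.5% of all genes were called.

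Of the regulators, Pmepa1 and Ldlrad4, both inhibitors of Smad activation, were higher in SP than in EC (2.48, SE 0.53, and 2.07, SE 0.56), as was the corepressor Tgif1 (2.53, SE 0.60). Of the 16 tested, 5 were higher and 1 lower in SP than in EC, where 25.5% of all genes were called. The lower one was Fkbp1a (-1.19, SE 0.23), whose protein binds the type 1 receptor and keeps it inactive. Of the 21 response genes, all tested, 14 were higher and 1 lower in SP than in EC (25.5% of all genes called), and 15 were higher and 1 lower in OP than in EC (27.9% of all genes called). The leading genes were the matrix genes Col3a1 (7.84, SE 0.67, SP minus EC), Col1a1 (7.23, SE 0.46) and Fn1 (6.60, SE 0.33). Col1a1 is also a gene of the osteoprogenitor marker list above, so its differences between populations are not separate from cell identity. The lower ones were the contractile genes Tagln in SP (-2.24, SE 0.87) and Acta2 in OP. Voom-limma called 13 higher and 0 lower in SP (28.4% of all genes), so that the Tagln call was not made by it, and 11 higher and 1 lower in OP (31.4%), the lower one again Acta2. Acta2 is also a gene of the mural list, which summed to 124 to 505 RPKM in healthy and 0.0474 to 367 RPKM in myeloma-bearing EC, and the part of mural cells in these differences was not tested. Nox4, an oxidase gene induced by TGF-β, separated SP from OP by 4.26 (SE 0.52), and Col1a1 was lower in SP than in OP (-2.79, SE 0.48). Between SP and OP limma called 6 response genes higher and 1 lower (8.48% of all genes called). Voom-limma called 4 higher, Nox4 among them, and 0 lower (9.23% of all genes), so the Col1a1 call was not made by it.

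The genes most like each member were found by Pearson r of log2(RPKM + 1) over the 38 libraries, among 12683 genes, as a description across populations that share these libraries. Tgfb2 was most like Prrx1 (r = 0.926), a transcription factor of limb mesenchyme, then Mmp2 and Col6a1 (0.90 each). Tgfb3 was most like Omd, osteomodulin (0.960), Htra3 (0.948) and Chad (0.948). Tgfbr1 was most like S100a4 (0.925), Tgfbr2 like Sgk1 (0.962) and Tgfbr3 like Cd9 (0.979). Inhba was most like Dpysl3 (0.833). Lower values went to Smad3 (Cyth3, 0.707), Fst (Aspn, asporin, 0.698) and Smad2 (Galc, 0.607).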

How the data were processed

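Libraries of 100 sorted cells were made with SmartSeq2. The authors aligned reads with STAR (2.4.0) to GRCm38 (mm10), counted them per gene with featureCounts (Subread 1.4.5-p1, default parameters), removed genes that did not pass 1 CPM in 4 or more libraries, and deposited RPKM values made with edgeR. Whole reads were recovered from those RPKM values for all 13260 genes (100% within 0.001 reads). Reads are not marked by molecule, so precision from depth covers counting error alone. Groups came from the labels. The test was limma (3.58.1, R 4.3.3; trended eBayes, Benjamini-Hochberg) on log2(RPKM + 1). A gene was tested where 4 or more libraries of the fit passed 1 RPKM. It used the libraries compared, or all 38 between populations. Calls needed an adjusted p below 0.1 and a log2 difference above 1. Voom-limma on recovered reads, the study's own method, another pseudocount, no filter, untrended eBayes, other sets of libraries, a replicate block and leaving out each replicate were alternatives. Named genes are the members, at most 3 called genes per pathway list, direction and comparison, and the genes most like each member. The members and lists were chosen with earlier results of these data known. Scripts were tested on simulated data. Promoter sequences are RefSeq's on GRCm38.p6, and gene positions are GENCODE's. Windows of 5 of 9 members were searched, leaving out chromosome 18, which holds Smad2.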

Additional observations from a re-analysis of the deposited data

Results flagged for a closer look

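In 8 of 55 combinations of a member and a group with a library above 1 RPKM, 1 library lay far from the others by Dixon's ratio, the gap to the nearest library divided by the range on the log2(RPKM + 1) scale. Chance flags about 5% of groups of normally distributed values. A group with reads in 1 library and 0 in the others has a ratio of 1.00 at any level. The number of flags is therefore not measured against that share. In healthy osteoprogenitors, library N was low for Tgfb2 (ratio 0.901, 6.15 RPKM against 18.6 to 20.9) and Smad2 (0.860, 0.0675 against 6.62 to 9.49) and was the 1 library with Inhba (1.00, 6.22 RPKM against 0 reads in the other 3). Library O of the same group was low for Smad3 (0.850, 0.812 against 14.2 to 21.2 RPKM). In myeloma-bearing osteoprogenitors, G was high for Inhba (0.976, 12.1 RPKM against at most 0.0645). In healthy endothelial cells, N was high for Tgfb3 (0.993, 10.8 RPKM against at most 0.0171) and C for Inhba (1.00, 2.53 RPKM against 0 reads). In myeloma-bearing endothelial cells, G was high for Fst (0.788, 85.2 RPKM against at most 1.57).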

How the results depend on the processing

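With 2 exceptions the number of members called stayed at 0 in the condition, niche and interaction comparisons. Those were Tgfbr1 in endothelial cells, which made it 1 by voom-limma on recovered reads and 1 with all 38 libraries in 1 fit. Leaving out each replicate gave 0 to 1 members for stromal progenitors against osteoprogenitors, 2 to 5 for osteoprogenitors against endothelial cells and 6 to 8 for stromal progenitors against endothelial cells. With the libraries of both populations alone, stromal progenitors against osteoprogenitors fell to 0. In healthy mice alone the same comparison gave 0, stromal progenitors against endothelial cells 5 and osteoprogenitors against endothelial cells 2, all with fewer samples. No called value changed direction, but values that were not called did so in 23 of 655 checks other than leaving out a replicate, and in 82 of 1251 that left one out. All are differences on the log2 scale, with stromal progenitors (SP), osteoprogenitors (OP), endothelial cells (EC) and myeloma cells (MM). By voom-limma the myeloma difference in SP became 0.0078 for Tgfbr1 and 0.011 for Fst, and Smad2 became 0.16 (SP against EC), 0.74 (OP against EC), -0.077 (SP against MM) and -0.24 (EC against MM). The voom-limma differences in myeloma change became 1.51 for Fst (SP against OP) and, for SP against EC, -2.67 for Tgfb2, 0.72 for Smad2 and -0.53 for Smad3. With a pseudocount of 0.1, Smad2 became 0.25 (OP against EC), the change of Fst 0.59 (SP against OP), and the changes of Tgfb2 and Smad2 -1.25 and 0.18 (SP against EC). In healthy mice alone Smad3 became -0.38 (SP against OP). Without the stromal pair with myeloid genes the SP myeloma difference became 0.11 for Tgfb3, 0.14 for Tgfbr3, 0.091 for Smad2 and -0.45 for Inhba. The change of Inhba became -0.70 (SP against OP) and -0.082 (SP against EC), and those of Tgfb2 and Smad2 -0.069 and 0.20 (SP against EC). The cause was not tested. Leaving out each replicate, the myeloma difference in EC ran from -0.82 to 0.58 for Smad2. In SP it ran from -0.18 to 0.24 for Tgfb3, -0.25 to 0.17 for Tgfbr1, -0.33 to 0.071 for Tgfbr3, -0.64 to 0.19 for Smad2 and -0.044 to 1.42 for Inhba. In OP it ran from -0.52 to 0.39 for Tgfb2, -0.19 to 0.53 for Tgfb3, -0.35 to 0.57 for Tgfbr1, -0.53 to 0.19 for Tgfbr2 and -0.35 to 0.079 for Tgfbr3. Between populations, Smad2 ran from -0.37 to 0.34 (OP against EC) and -0.085 to 0.54 (SP against MM), and Inhba from -0.0045 to 0.22 (EC against MM). The difference in change between SP and OP ran from -0.56 to 0.16 for Tgfb3, -0.62 to 0.30 for Tgfbr1, -0.24 to 0.27 for Tgfbr3, -0.34 to 1.29 for Inhba and -0.91 to 0.73 for Fst. Between SP and EC it ran from -0.33 to 0.62 for Tgfb2, -0.063 to 0.91 for Tgfb3, -0.72 to 0.68 for Smad2 and -0.048 to 1.07 for Smad3, and between OP and EC from -0.29 to 0.65 for Tgfbr2. Over all genes, calls went from 0 to 251 (voom-limma) or 150 (all 38 in 1 fit) in endothelial cells, 0 to 82 or 28 in stromal progenitors and 1 to 28 or 24 in osteoprogenitors, and in the niche comparison from 18 to 1 without the filter and to 12 under the block, voom-limma, untrended eBayes or a pseudocount of 0.1. Leaving out each replicate gave 10 to 24 niche calls. No filter or untrended eBayes gave 2 and 3 calls in endothelial cells, 0 and 1 in stromal progenitors and 0 and 2 in osteoprogenitors. Interaction calls went from 0 to at most 51. In healthy mice alone, 1075, 3231 and 3535 calls between lining populations became 312, 1465 and 1361.

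Same-lettered libraries did not deviate together: 1 of 45 correlations passed 0.1 (range -0.043 to 0.115). A replicate block on the letter gave the same numbers of members called (0 between niches, and 1, 8, 4, 8, 7 and 4 between populations). Leaving out the stromal pair with myeloid genes was chosen after seeing the data. In libraries with 0 reads, 3 reads would have been worth up to 0.160 RPKM of Inhba and 0.105 RPKM of Fst.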
